A study of Mus musculus with 44 samples.

Results

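The antiviral interferon-stimulated genes described here are 46 genes of a mouse macrophage RNA series, taken by their symbols from a table of counts for 46078 genes. The rule goes by symbol and takes no measured value, but the members were chosen with earlier results of these data known. All 46 symbols had a row. The series measured polyadenylated RNA in 44 cultures of peritoneal macrophages from C57BL/6 mice, and its title sets damage-associated molecular patterns beside M1 polarization. Thioglycolate brought the macrophages into the peritoneum, they were harvested after 4 days, several mice were pooled into 1 isolate, and the adherent cells were grown in DMEM and 10% FBS. The cultures then received lipopolysaccharide (LPS, 100 ng/mL), an extract of H9c2 cells (10 µg/mL), interleukin 4 (IL-4, 10 ng/mL) or no addition (control), for 8, 24 or 72 h. LPS is a bacterial wall product that activates macrophages through TLR4, H9c2 is a cell line derived from rat heart, and IL-4 is the cytokine of alternative activation. There were 12 groups of 4 libraries each, save for 3 libraries in cell extract at 24 h and at 72 h, IL-4 at 72 h and control at 72 h. Mice were pooled, so the p-values speak of the spread among cultures and not among single animals. Whether each replicate number is an isolate of its own is not given in the labels.

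Interferon-stimulated genes are the effector arm of the interferon response. Type I interferon binds its receptor, the kinases Jak1 and Tyk2 are activated, and a complex that holds Irf9 binds the interferon-stimulated response element (ISRE) upstream of its target genes. Interferon gamma acts through another element, the gamma-activated site (GAS). In macrophages the pathway is known to be switched on by LPS through TLR4, Irf3 and interferon beta made by the cells themselves. The products bind viral RNA, block entry, replication or release of viruses, attach the ubiquitin-like protein Isg15 to other proteins, or act as brakes on the response.

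Gene counts per library ran from 908458 to 26616968. All 46 genes passed the filter on low counts that left 14537 genes for testing, but only 44 would have passed it in the control libraries alone or in the libraries without LPS, since Apol9a and Apol9b passed through the LPS libraries. Levels are given below in CPM, the counts of a gene relative to the library's total after TMM scaling, per library in order of replicate number or as mean ± SD, with n of 4 unless the group has 3 libraries as above. Changes are fitted log2 values ± SE, and a gene counts as called where edgeR's quasi-likelihood test gave a p under 0.05 after Benjamini-Hochberg adjustment over all genes tested. All 8 macrophage markers of the list used were detected in every group, at a sum of 7901 to 30720 CPM. In bulk RNA, fewer cells of a type and less RNA per cell cannot be told apart.

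3 libraries stood apart from their groups in these genes. Control 8 h replicate 1 was above every other control library of that time in 40 of the 46 genes, by a median ratio of 2.14 to the mean of the others and by a ratio over 3 in 18 genes. Its excess over the other control cultures was a median of 2.87% of the LPS 8 h level, with quartiles of 2.34% and 3.25%. Control 24 h replicate 1 was above its group in 28 genes (median ratio 1.20), and IL-4 24 h replicate 1, the shallowest library of the series at 908458 gene counts, in 31 genes (median ratio 1.68). Why these libraries differ was not tested, and the results these libraries move are given with and without them. Without control 8 h replicate 1 the fitted change at 8 h moved by over 1.5 times in 18 genes with each stimulus, by up to 2.08 on the log2 scale. Without control 24 h replicate 1 no change with LPS or cell extract at 24 h moved by more than 0.54.

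The core letters of the ISRE stand near the start of many of these genes. Of the 46, 36 had a promoter window in RefSeq (GRCm38.p6), which runs from 250 bases before to 50 bases after each gene's start, and 16 of these 36 genes (44.4%) held the core GAAANNGAAA on either strand, against 3.99% of all 27025 genes with a window. The GAS letters TTCNNNGAA, which read the same on both strands, stood in 6 of the 36 (16.7%), against 9.55% of all genes. 3 genes held both and 17 neither, and in Ifitm3 and Bst2 the matches of both motifs overlapped. Matches that overlapping windows of 1 gene share were counted once, from the nearer start. In Trim21 and Ifitm3 every core match lay after the start. Of the 24 ISRE core matches before the start, 21 lay within 150 bases of it. The nearest was at position -12, the farthest at -188 and the median at -69. A match describes letters and is not evidence of binding. The stretches below, each 60 bases from its RefSeq gene's own strand, are shown because they carry the core in genes whose values are given in every library or that belong to pairs of near-identical copies. Capitals mark the ISRE core matches, overlapping ones run together, and positions count back from the start.
Ifit1: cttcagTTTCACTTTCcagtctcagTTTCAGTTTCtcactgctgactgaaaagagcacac
Ifit3: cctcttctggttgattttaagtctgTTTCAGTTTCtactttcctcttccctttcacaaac
Ifit3b: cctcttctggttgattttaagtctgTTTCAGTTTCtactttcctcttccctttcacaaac
Isg15: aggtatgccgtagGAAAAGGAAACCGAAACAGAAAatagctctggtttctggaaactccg
Oas1a: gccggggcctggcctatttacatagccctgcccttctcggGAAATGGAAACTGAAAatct
Oas1g: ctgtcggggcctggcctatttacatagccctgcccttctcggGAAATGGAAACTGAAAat
Oas3: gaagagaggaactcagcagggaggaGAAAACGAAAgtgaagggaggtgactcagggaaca
Rsad2: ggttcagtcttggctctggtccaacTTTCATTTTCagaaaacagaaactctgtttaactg
Bst2: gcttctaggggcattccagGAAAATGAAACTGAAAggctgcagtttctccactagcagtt
Trim30a: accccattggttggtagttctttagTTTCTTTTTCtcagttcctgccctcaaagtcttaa
The stretch of Ifit1 lies at chr19:34640779-34640838 (plus strand), that of Ifit3 at chr19:34583382-34583441 (plus) and that of Ifit3b at chr19:34607778-34607837 (plus). Isg15 is at chr4:156200850-156200909 (minus), Oas1a at chr5:120907526-120907585 (minus), Oas1g at chr5:120887614-120887673 (minus) and Oas3 at chr5:120777700-120777759 (minus). Rsad2 is at chr12:26456538-26456597 (minus), Bst2 at chr8:71537562-71537621 (minus) and Trim30a at chr7:104465195-104465254 (minus). All 10 stretches lie before the RefSeq start of their gene and outside the span of that gene in GENCODE M21. The 60 bases of Ifit3 and Ifit3b are identical letter for letter, and the stretches of Oas1a and Oas1g share a run of 56 bases that holds both of their cores. Isg15 carries 3 overlapping cores in a row, Ifit1 has 2 that are apart from each other, and Oas3, Rsad2 and Trim30a have 1 in the stretch shown. Mx1, Mx2, Oas2, Usp18, Rtp4, Parp9, Parp14, Tor3a, Gm14446 and Pydc4 had no window.

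Every one of the 46 genes rose with LPS at 8, 24 and 72 h. The rise was called for 46 of 46 at each time, against 21.3%, 18.6% and 16.1% of all genes called higher at 8, 24 and 72 h. Apol9a and Apol9b passed the filter only through the LPS libraries, so their rise with LPS is no independent result. The other 44 would have passed without those libraries. None of the 46 was called lower, against 24.1%, 19.3% and 15.4% of all genes. The median log2 change was 4.91 at 8 h, 4.80 at 24 h and 3.36 at 72 h, while the median over all genes tested stayed between -0.07 and 0.05. Every LPS library lay above every control library in all 46 genes at each time, against 20.8%, 20.5% and 13.8% of all genes at 8, 24 and 72 h. Without the 3 libraries that stood apart the rise was again called for all 46, with medians of 5.25 at 8 h and 4.76 at 24 h. Together the genes took 4.70 ± 0.0807% of gene counts in LPS cultures at 8 h, 2.55 ± 0.223% at 24 h and 1.17 ± 0.115% at 72 h. In control cultures they took 0.210 ± 0.106%, 0.159 ± 0.0147% and 0.143 ± 0.00648% at 8, 24 and 72 h.

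**Figure D1:**
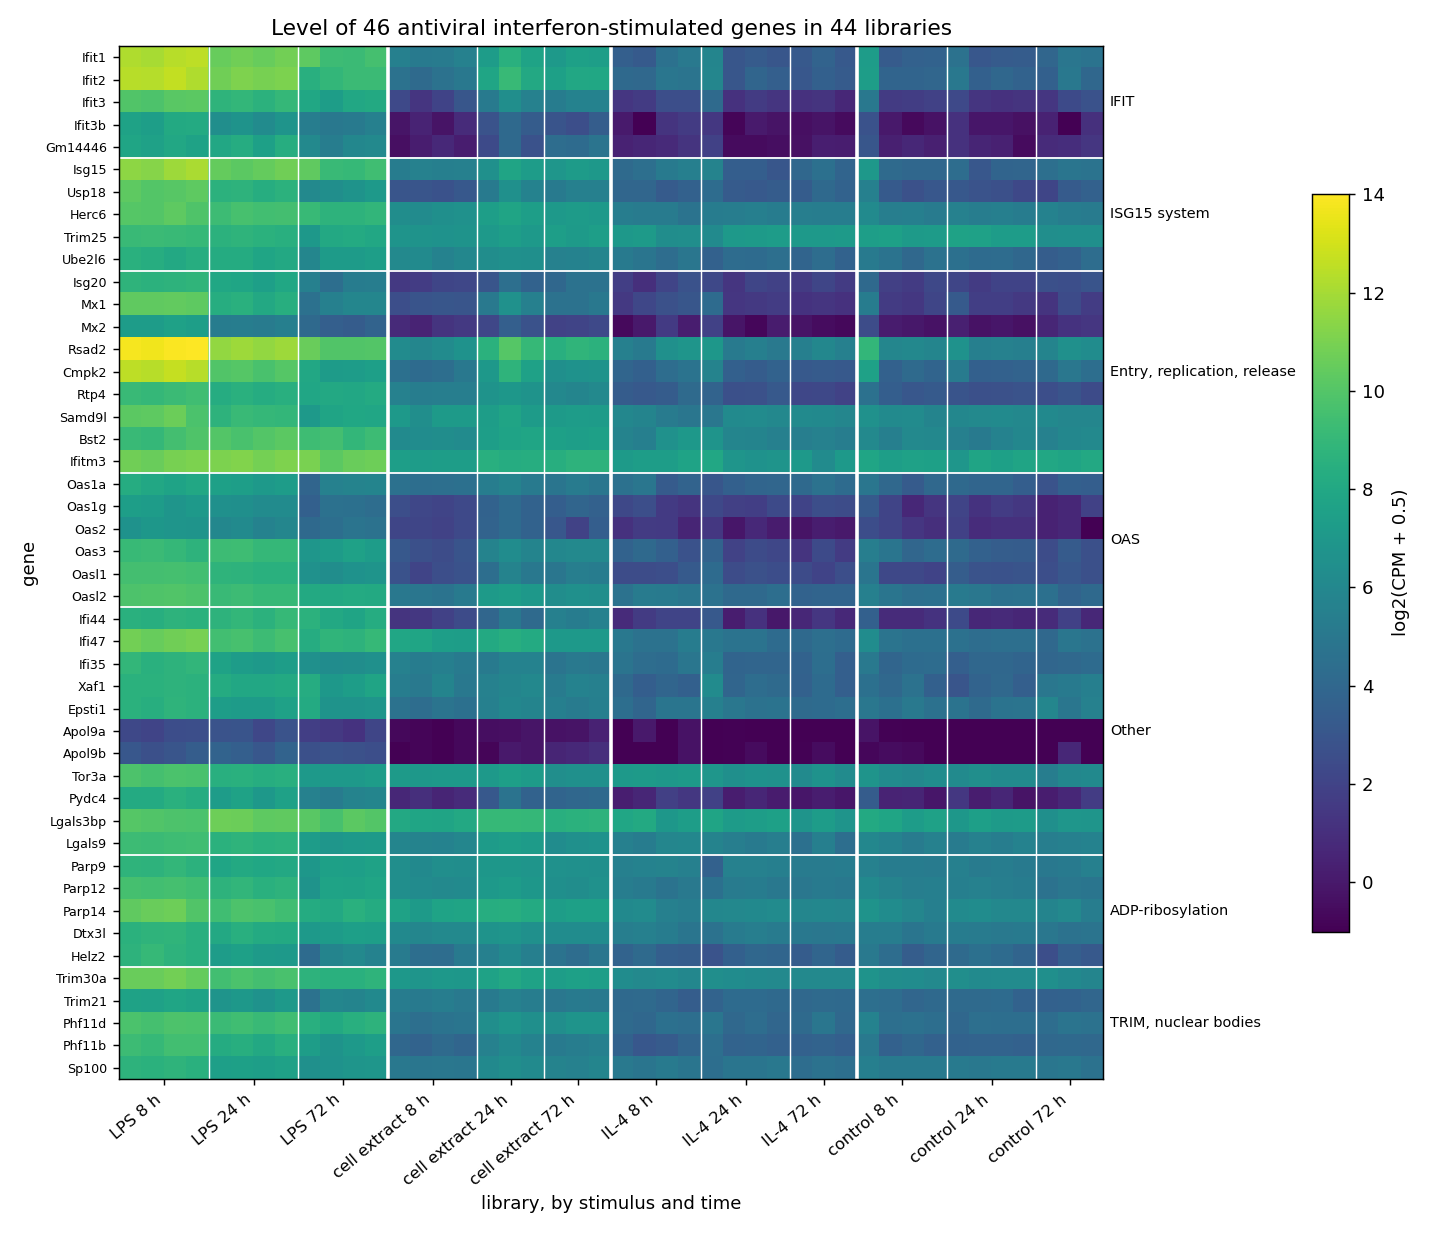
Level of the 46 genes (rows, by role) in the 44 libraries (columns, by stimulus and time) as log2(CPM + 0.5), with libraries in order of replicate number in each group. The 12 LPS libraries on the left are the brightest columns for most genes, cell extract columns brighten between 8 and 24 h, and the first column of control 8 h is brighter than its neighbours, as is the first of IL-4 24 h for many genes.

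The IFIT proteins, which bind viral RNA that lacks host cap marks, sit in a cluster on chromosome 19 and had the largest rises of the role groups at 8 h, with a median log2 change of 6.71 over 5 of 5 called (8.58 without control 8 h replicate 1). Ifit1 (GRCm38 chr19:34640871-34650009) stood at 4757, 4202, 5323 and 5771 CPM in LPS cultures at 8 h, against 156, 9.51, 12.3 and 12.8 CPM in control cultures. The change was 6.72 ± 0.70 (adjusted p = 1.21e-10), and 8.78 ± 0.61 without the 1 high control library, the replicate 1 named above. Ifit3, whose human counterpart is the partner that stabilises IFIT1 on RNA, stood at 982, 908, 1164 and 1200.3 CPM with LPS and at 32.2, 2.52, 2.88 and 3.20 CPM in controls (6.71 ± 0.58, and 8.56 ± 0.50 without control replicate 1). Its copy Ifit3b had the largest change of all 46 genes at this time, with 201, 172, 273 and 295 CPM in LPS cultures and 6.40, 0.511, 0.160 and 0.320 CPM in control cultures (7.04 ± 0.51, adjusted p = 3.93e-15, and 9.12 ± 0.47 without control replicate 1). In the LPS 8 h libraries Ifit3b was at 18.9% to 24.6% of Ifit3. Of the 50-base words of Ifit3, 51.2% also occur in Ifit3b, so reads can fall to either and the split between these genes is uncertain.

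The oligoadenylate synthetases, which sense duplex RNA and make the messenger that activates RNase L, rose in 6 of 6 at 8 h with a median log2 change of 5.01. Oasl1, a family member that in mice is known to restrain Irf7 translation, stood at 752, 741, 778 and 713 CPM in LPS cultures, against 27.5, 4.19, 4.32 and 3.62 CPM in control cultures (6.23 ± 0.43, and 7.52 ± 0.33 without control replicate 1). The synthetase Oas3 stood at 561, 609, 509.8 and 411 CPM with LPS and at 41.6, 27.7, 14.9 and 18.97 CPM in controls (4.33 ± 0.29). The groups were far apart in both genes, and control replicate 1 was again the highest control library. Oas1a, also a synthetase, stood at 313, 261, 208 and 252 CPM in LPS cultures and 29.1, 16.7, 9.59 and 16.3 CPM in control cultures (3.83 ± 0.27), and 57.6% of its 50-base words also occur in Oas1g. Oas1g was at 53.4% to 59.9% of Oas1a in the LPS 8 h libraries and at 11.7% to 30.5% in the control 8 h libraries.

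Isg15, the ubiquitin-like protein that is attached to other proteins and also secreted, rose with the conjugating enzyme Ube2l6, the ligase Herc6 and the deconjugating protease Usp18. Isg15 (GRCm38 chr4:156199424-156200818) stood at 2848, 2451, 3543 and 4375 CPM in LPS cultures at 8 h and at 128, 18.1, 15.7 and 15.6 CPM in control cultures (6.22 ± 0.57, and 7.65 ± 0.51 without control replicate 1). Usp18, which also acts as a brake at the interferon receptor, stood at 1232, 1029, 1124 and 1266 CPM with LPS, against 46.5, 8.97, 6.07 and 7.89 CPM without (6.06 ± 0.43, and 7.22 ± 0.35 without control replicate 1). The smallest rise of all 46 genes was that of Trim25, the ubiquitin ligase that activates the RNA sensor RIG-I, with 587, 591, 589 and 534 CPM in LPS cultures and 172, 183, 143 and 153 CPM in control cultures (1.82 ± 0.18, adjusted p = 3.71e-11). For Trim25 control replicate 1 lay within the range of the other control libraries, while for Isg15 and Usp18 it lay several times above them.

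Genes whose products act on virus entry, replication and release rose in 9 of 9 at 8 h with a median log2 change of 5.97 (7.0 without control 8 h replicate 1). Rsad2 encodes viperin, which makes a chain-terminating nucleotide, and it stood at 14199, 13242, 15602 and 16540.4 CPM in LPS cultures, against 489, 58.9, 64.9 and 56.8 CPM in control cultures (6.48 ± 0.58, and 7.95 ± 0.50 without control replicate 1). Its neighbour Cmpk2, a nucleotide kinase read from the other strand on chromosome 12, stood at 5909, 5347, 6612 and 5464 CPM with LPS and 189, 12, 17.6 and 13.6 CPM in controls (6.65 ± 0.66, and 8.68 ± 0.54 without control replicate 1). In both genes control replicate 1 lay several times above the other control libraries and still far below every LPS library. The dynamin-like GTPase Mx1 stood at 1308, 1284, 1359 and 1244 CPM in LPS cultures and 39.8, 2.52, 2.24 and 3.84 CPM in control cultures (6.74 ± 0.62, and 8.83 ± 0.52 without control replicate 1). Mx2 stood at 156, 155, 189.8 and 171 CPM in LPS cultures and 5.06, 0.614, 0.480 and 0.320 CPM in control cultures (6.75 ± 0.42, and 8.30 ± 0.38 without control replicate 1). Many inbred mouse strains, C57BL/6 among them, carry defective Mx1 alleles, and Mx2 is annotated as a polymorphic pseudogene, so these are levels of RNA only. Bst2, or tetherin, which holds budding virus at the cell surface, stood at 573, 509.7, 748 and 925 CPM with LPS and 65.2, 43.5, 65.4 and 64.3 CPM in controls (3.53 ± 0.26). Ifitm3, which blocks fusion of viruses in endosomes, stood at 1720.4, 1519, 1934 and 2150.3 CPM in LPS cultures and 223, 171, 195 and 185 CPM in control cultures (3.24 ± 0.23). That is the third smallest rise, and per kb of exon Ifitm3 had the highest level of the 46 genes in control cultures at 8 h.

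The ADP-ribosyltransferases and their partners rose in 5 of 5 at 8 h, with the smallest median of the role groups, 3.83. Parp14, which modifies proteins with ADP-ribose, stood at 1329.7, 1517, 1674 and 992 CPM in LPS cultures and at 105, 79.1, 58.99 and 44.1 CPM in control cultures (4.26 ± 0.22). The tripartite motif and nuclear body genes rose in 5 of 5 with a median of 4.25. Among these Trim30a, a regulator of Toll-like receptor signalling in mice, stood at 1555, 1540.4, 1833 and 1387 CPM with LPS and 106, 81.9, 77.2 and 67.2 CPM in controls (4.25 ± 0.15). The 11 remaining genes also rose, with a median of 4.40. Lgals9, the lectin galectin-9, stood at 617, 606, 646 and 682 CPM in LPS cultures and 60.6, 50.5, 37.7 and 47.3 CPM in control cultures (3.70 ± 0.18). The secreted glycoprotein Lgals3bp, with the second smallest rise, stood at 1046, 983, 922 and 864 CPM in LPS cultures and 272, 229, 155 and 195 CPM in control cultures (2.16 ± 0.19).

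At 24 and 72 h with LPS the order of the genes shifted while all stayed above control. The largest change at 24 h among genes with counts in controls was that of Gm14446, and the smallest were those of Trim25 (1.17 ± 0.18), Tor3a (2.22 ± 0.14) and Sp100 (2.41 ± 0.11). Apol9b and Apol9a, apolipoprotein L genes, had 430 and 233 counts over the 4 LPS libraries and 0 counts in every control library at 24 h. Against a floor of 3 counts over the control group, Apol9b was at least 136-fold and Apol9a at least 72.4-fold higher in LPS cultures. Gm14446, a predicted gene placed here with the IFIT genes, averaged 272 ± 64.5 CPM in LPS cultures and 0.915 ± 0.635 CPM in controls (8.43 ± 0.54). At 72 h the largest changes among genes with counts in controls were those of Ifi44 (7.34 ± 0.68), which averaged 299 ± 78.8 CPM in LPS cultures and 1.85 ± 1.18 CPM in controls, and of Ifit3 (5.89 ± 0.73). Apol9a was at least 8.54-fold higher in LPS cultures at 72 h on the same floor, a bound that gives it no rank among the others. The smallest rises at 72 h were those of Tor3a (1.37 ± 0.16), Trim25 (1.43 ± 0.20) and Lgals9 (1.58 ± 0.19). By role the medians at 72 h were 5.26 for the IFIT genes, 3.94 for the oligoadenylate synthetase family, 3.45 for Isg15 and its enzymes, 3.01 for the genes of entry, replication and release, 2.53 for the ADP-ribosyltransferase group and 2.43 for the tripartite motif and nuclear body genes. With genes at 0 counts in controls set to their lower bound, the median log2 change was 4.80 at 24 h and 3.29 at 72 h.

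The libraries of LPS at 24 h lay close together. Ifit1 stood at 1467, 1720.3, 1456 and 1812 CPM in LPS cultures and 24.9, 8.03, 9.34 and 9.64 CPM in control cultures (7.02 ± 0.72). Isg15 stood at 1425, 1209.7, 1421 and 1701 CPM in LPS cultures and 20.3, 7.92, 13.9 and 14.5 CPM in control cultures (6.69 ± 0.59). Mx1 stood at 327, 368, 268 and 340.2 CPM with LPS and 9.14, 2.89, 2.94 and 2.27 CPM in controls (6.42 ± 0.64). All 3 genes were below their 8 h level in LPS cultures, and none of their libraries overlapped with the controls. Oas3, in contrast, stood at 631, 659, 519 and 518 CPM with LPS at 24 h and 18.03, 11.98, 10.5 and 9.83 CPM in controls (5.57 ± 0.31). Bst2 stood at 1014, 835, 1030.3 and 1225 CPM with LPS and 46.2, 35.5, 49.1 and 60.8 CPM in controls (4.42 ± 0.27). Ifitm3 stood at 2119.6, 2259.7, 1901 and 2179 CPM with LPS and 118, 219, 183 and 217 CPM in controls (3.52 ± 0.23). The means of these 3 genes, and that of Lgals3bp at 1643, 1567, 1264 and 1298 CPM with LPS and 124, 179, 143 and 148 CPM in controls (3.28 ± 0.20), were highest at 24 h in LPS cultures.

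At 72 h the LPS cultures still stood apart from their controls in the same genes. Mx2 stood at 17.4, 11.4, 9.89 and 13.3 CPM with LPS and 1.06, 1.78 and 2.14 CPM in controls (3.0 ± 0.63), and Mx1 at 24.1, 45.7, 59.3 and 58.9 CPM and 1.91, 4.98 and 2.68 CPM (3.99 ± 0.79). Oasl1 stood at 95.4, 82.4, 101 and 109 CPM in LPS cultures and 5.51, 7.82 and 5.89 CPM in control cultures (3.93 ± 0.50). Usp18 was at 3.82, 9.24 and 12.3 CPM in the controls of that time (3.69 ± 0.50 with LPS). Ifit3b stood at 41.4, 31.96, 35.9 and 46.9 CPM with LPS, against 0.848, 0 and 1.61 CPM from 7 counts in all in controls (5.68 ± 0.79). The lowest LPS library thus lay several times above the highest control library in Mx1, Oasl1 and Ifit3b.

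In control cultures at 72 h the markers of mesothelial cells and of fibroblasts were at their highest in the series. The 8 mesothelial markers summed to 1.93 to 5.49 CPM in LPS cultures at 72 h and to 69.0 to 103 CPM in control cultures at 72 h, with all 8 detected in both. The 5 fibroblast markers summed to 158 to 291 CPM with LPS and to 485 to 1085 CPM in controls, with all 5 detected. The 4 neutrophil markers were highest with LPS at 72 h, at 291 to 517 CPM and all detected, against 39.9 to 56.7 CPM in controls, where Ly6g and Retnlg were at 0. At 24 h they summed to 55.1 to 63.9 CPM with LPS (Retnlg at 0) and to 18.5 to 34.1 CPM in controls (Ly6g at 0). The part of these markers in the differences was not tested.

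**Figure D2:**
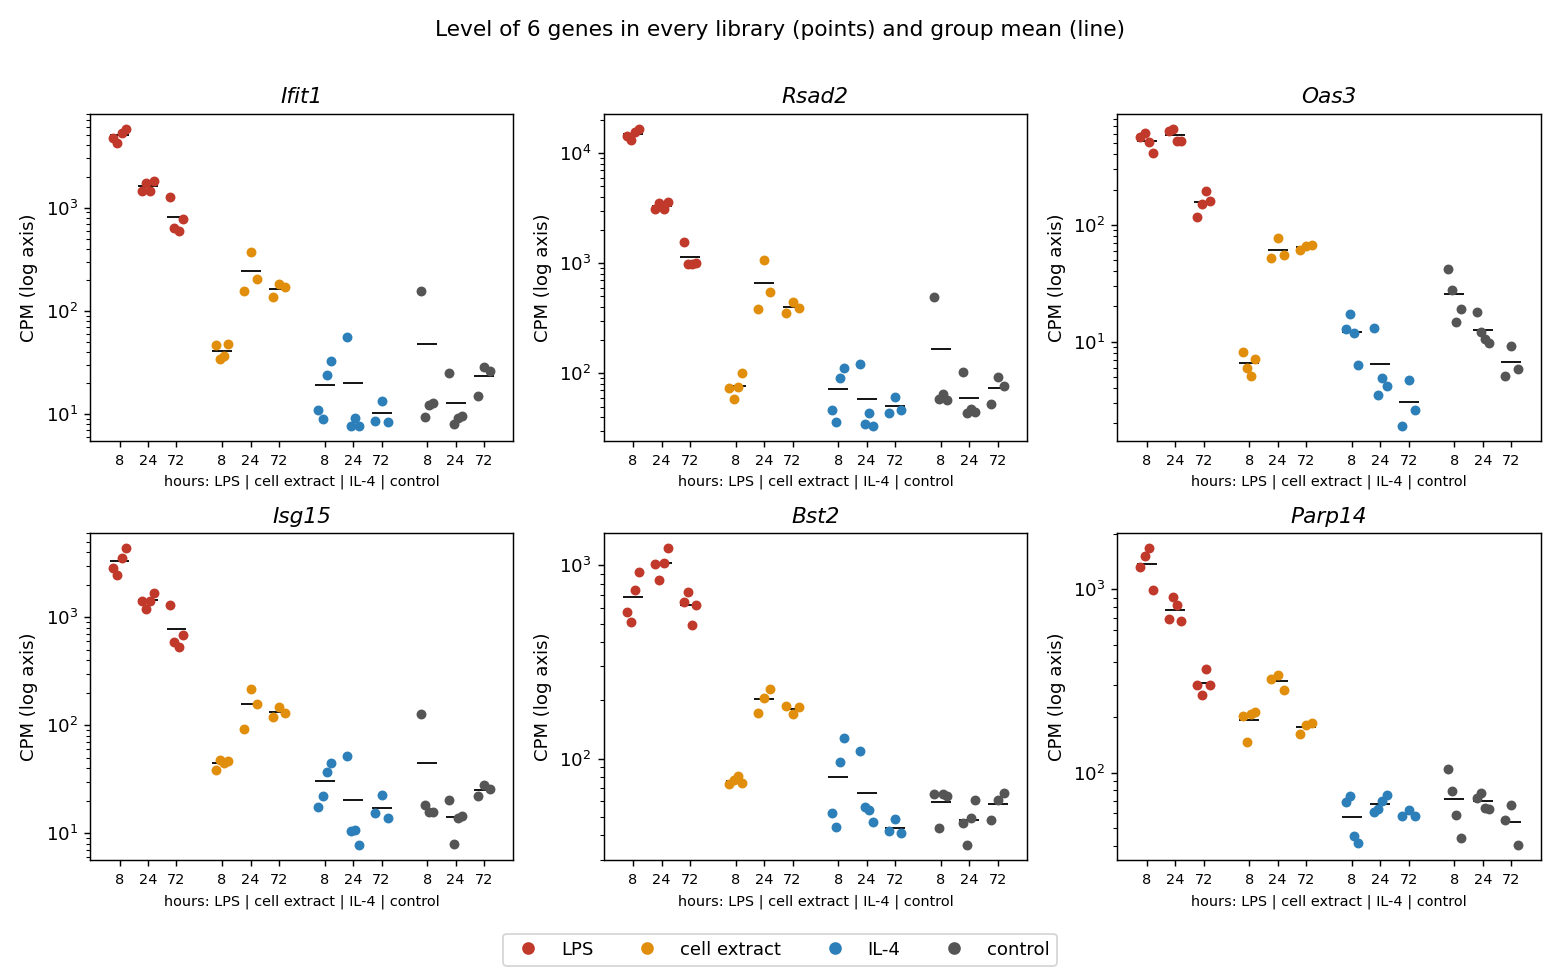
Level of Ifit1, Rsad2, Oas3, Isg15, Bst2 and Parp14 in CPM (log axis) in every library (points) with the mean of each group (line), for LPS, cell extract, IL-4 and control at 8, 24 and 72 h. Ifit1, Rsad2, Isg15 and Parp14 decline with time in LPS cultures, Bst2 is near its 8 h mean at 72 h, all 6 are higher with cell extract at 24 h than at 8 h, and in Ifit1, Rsad2 and Isg15 1 control library at 8 h lies far above the other 3.

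Between 8 and 72 h of LPS, 40 of the 46 genes fell, against 21.9% of all genes called lower, and none rose, against 21.6% called higher. The median log2 change between these times was -2.06, and in all 40 genes that fell every library at 72 h lay below every library at 8 h, which held for 19.5% of all genes. The extent ran from 3.17% of the 8 h level left at 72 h to no fall at all. Cmpk2, the nucleotide kinase, had the largest fall, with a mean of 5833 ± 573 CPM at 8 h, 994 ± 103 CPM at 24 h and 185 ± 48.1 CPM at 72 h. Its change at 72 h against 8 h was -4.99 ± 0.61 (adjusted p = 1.03e-08). Mx1 (-4.73 ± 0.56) and Mx2 (-3.78 ± 0.36) followed, and Mx1 had 3.62% of its 8 h level at 72 h. Rsad2 averaged 14896 ± 1463 CPM at 8 h, 3334 ± 270.3 CPM at 24 h and 1138 ± 282 CPM at 72 h, where 7.64% was left (-3.71 ± 0.51).

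The brake Usp18 fell by a similar extent, with 67.5, 86.5, 104 and 137 CPM at 72 h of LPS and -3.53 ± 0.38 as its log2 change against 8 h. Ifit1 stood at 1274, 629.9, 594 and 774 CPM at 72 h (-2.62 ± 0.58) and Isg15 at 1291, 588, 534 and 686 CPM (-2.10 ± 0.47), and in both replicate 1 was the highest of the 4. That library was the shallowest of its group, at 1103271 gene counts, and it was the lowest of the 4 in Mx1, Oas1a and Trim25. Without it the count of genes that fell was again 40. Oas1a stood at 14.5, 47.9, 52.2 and 53.8 CPM at 72 h (-2.53 ± 0.26) and Oas3 at 118, 151, 196 and 159 CPM (-1.74 ± 0.26). Parp14 stood at 301, 266, 368 and 302 CPM at 72 h (-2.16 ± 0.20), Trim30a at 419, 368, 362 and 434 CPM (-2.0 ± 0.14) and Lgals9 at 154, 117, 137 and 143 CPM (-2.22 ± 0.17).

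6 genes did not pass the test between 8 and 72 h of LPS, namely Lgals3bp, Bst2, Ifitm3, Apol9b, Ifi44 and Apol9a. Lgals3bp stood at 1153, 792, 1190.1 and 1007 CPM at 72 h, 109% of its mean at 8 h (0.12 ± 0.18, adjusted p = 0.661). Bst2 stood at 647, 726, 494 and 622 CPM, 90.3% of its 8 h mean (-0.15 ± 0.23), and Ifitm3 at 2066, 1223, 1529 and 1638 CPM, 88.1% of its 8 h mean (-0.18 ± 0.21). RNA for Bst2 and Ifitm3 thus stayed near its early level, while RNA for Rsad2 and Cmpk2 fell to a small share of theirs. Whether the role of a product bears on this was not tested. Of the 46 genes, 38 had their highest LPS mean at 8 h and 8 at 24 h. The 8 were these 6 with Oas3 and Gm14446.

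The change of the LPS effect itself, 72 h minus 8 h with each effect taken against its own controls, was lower for 27 genes (14.3% of all genes) and higher for 1 (15.7% of all genes), with a median of -1.42. Lgals3bp was the gene called with a larger LPS effect at 72 h (1.13 ± 0.27, adjusted p = 0.00145), and Ifi44 was next (0.74 ± 0.89) without passing. Apol9a, with 0 counts in control cultures at 72 h, is left out of this order, since its fitted difference depends on the prior count. The largest losses of effect were those of Mx2 (-3.75 ± 1.01), Cmpk2 (-3.64 ± 0.82) and Isg20 (-3.46 ± 0.62), an exonuclease of RNA. Bst2 (-0.11 ± 0.35), Ifitm3 (-0.52 ± 0.31) and Oas3 (0.23 ± 0.44) did not pass, nor did any of the 5 IFIT genes, whose SE ran from 0.80 to 1.40. These values moved with control 8 h replicate 1. Without it 35 genes had a smaller LPS effect at 72 h and 1 a larger, with a median of -1.98, and all 5 IFIT genes passed, with losses from -2.67 to -3.86. The difference for Ifit1 was -1.57 ± 0.85 with all libraries and -3.63 ± 0.64 without that library. The largest losses without it were those of Cmpk2 (-5.66 ± 0.58), Mx2 (-5.30 ± 0.80) and Mx1 (-4.83 ± 0.79), and Ifi44 (-0.70 ± 0.76) and Oas3 (-0.09 ± 0.43) turned below 0 without passing. Without the 3 libraries that stood apart, 36 genes had a smaller LPS effect at 72 h and 1 a larger.

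Cell extract gave a mixed picture at 8 h. 14 of the 46 genes were called higher than in control cultures (13% of all genes) and 6 lower (17.2% of all genes), with a median log2 change of -0.03, close to the -0.06 over all genes tested. The median of the 46 was 0.71 without control 8 h replicate 1. The genes called higher were led by Ifi47 (2.40 ± 0.25), an immunity-related GTPase, Rtp4 (1.74 ± 0.21), a receptor transporter, Parp14 (1.43 ± 0.20) and Ube2l6 (1.28 ± 0.22). Of the ADP-ribosyltransferase group 4 of 5 rose, Parp9, Parp12, Parp14 and Dtx3l, the ubiquitin ligase that pairs with Parp9. Parp9 and Dtx3l overlap in their exons over 9.40% of Parp9, and reads there cannot be assigned without strand. The others called higher were Xaf1, Trim21, Ifi35, Samd9l, Herc6, Tor3a and Trim30a.

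Parp14 stood at 204, 146, 208 and 215 CPM in extract cultures at 8 h, against 105, 79.1, 58.99 and 44.1 CPM in control cultures (adjusted p = 1.67e-07), so that every extract library lay above every control library. Trim30a, in contrast, stood at 129, 112, 127 and 122 CPM in extract cultures and 106, 81.9, 77.2 and 67.2 CPM in control cultures, a change of 0.55 ± 0.13. The largest fall was that of Oas3, at 8.19, 5.94, 5.11 and 7.09 CPM in extract cultures, against 41.6, 27.7, 14.9 and 18.97 CPM in control cultures (-1.98 ± 0.29, adjusted p = 4.75e-07), and every extract library lay below every control library. Trim25 was lower too, at 110.2, 105, 101 and 105 CPM with extract and 172, 183, 143 and 153 CPM in controls (-0.63 ± 0.18), again without overlap. Usp18, Isg20, Sp100 and Gm14446 completed the genes called lower, and Gm14446 was second in size (-1.87 ± 0.67, and -0.33 ± 0.61 without control 8 h replicate 1). The genes called lower numbered 12 without control 8 h replicate 2 or without replicate 4, and 2 without replicate 1.

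The direction of 14 genes at 8 h turned on control 8 h replicate 1. With all libraries Ifit1, Ifit2, Ifit3, Ifit3b, Mx1, Mx2, Oasl1, Rsad2, Cmpk2, Ifi44, Phf11b, Phf11d, Apol9a and Pydc4 had a fitted change below 0, and without that library above 0. Of these, Ifit1, Mx1 and Mx2 then passed, and without all 3 libraries that stood apart Ifit2, Cmpk2 and Ifi44 passed as well. Ifit1 stood at 46.6, 34.4, 37.1 and 48 CPM in extract cultures, which lies above 3 of the control libraries and below replicate 1. Its change was -0.20 ± 0.56 with all libraries and 1.86 ± 0.45 without control 8 h replicate 1 (adjusted p = 0.00146). Mx1, at 5.50, 6.90, 7.75 and 7.35 CPM with extract, changed by -0.82 ± 0.56 with all libraries and by 1.26 ± 0.44 without it, and Mx2, at 1.21, 0.891, 1.89 and 2.28 CPM with extract, by -0.06 ± 0.54 and 1.49 ± 0.48. Isg15, at 38.5, 48.1, 45.01 and 46.2 CPM with extract, changed by 0.00 with all libraries and by 1.43 ± 0.39 without it (adjusted p = 0.00403). Cmpk2, at 22.8, 18.2, 20.8 and 32.2 CPM with extract, changed by -1.31 ± 0.54 with all libraries and by 0.72 ± 0.39 without control 8 h replicate 1, which did not pass (adjusted p = 0.192). Rsad2 stood at 74.2, 58.6, 75.6 and 100.1 CPM with extract, and its change was -1.12 ± 0.47 with all libraries and 0.36 ± 0.35 without, passing in neither. Without control 8 h replicate 1 alone, 20 genes were called higher and 2 lower, and without all 3 libraries that stood apart 23 and 2, with 16 of the 20 calls kept either way. Oas3 and Trim25 were the 2 genes lower in every case. Usp18, at 7.25, 7.28, 6.43 and 8.36 CPM with extract, changed by -1.24 ± 0.39 with all libraries and by -0.08 ± 0.29 without control 8 h replicate 1.

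The remaining genes with values in every library did not pass between extract and control at 8 h. Oasl1 stood at 6.31, 3.79, 5.67 and 6.33 CPM in extract cultures, a change of -0.86 ± 0.40 with all libraries and of 0.42 ± 0.29 without control 8 h replicate 1. Ifit3 stood at 4.56, 2.005, 3.59 and 7.73 CPM, with -1.21 ± 0.55 and 0.64 ± 0.44, and Ifit3b at 0.403, 0.891, 0.378 and 1.27 CPM, with -1.16 ± 0.71 and 0.92 ± 0.66. None of these passed with or without that library. Oas1a stood at 23.5, 21.4, 21.9 and 23.05 CPM (0.31 ± 0.26). Bst2 stood at 73.4, 77.7, 81.1 and 74.7 CPM with extract (0.37 ± 0.23), above every control library but short of the threshold. Ifitm3 stood at 169, 156, 163 and 164 CPM (-0.25 ± 0.21), below every control library and also short of it. Lgals9 stood at 55.8, 51.6, 50.5 and 59.4 CPM (0.14 ± 0.16) and Lgals3bp at 269, 228, 219.8 and 268 CPM (0.21 ± 0.18), and these overlapped with the control values given above. The 4 neutrophil markers summed to 98.3 to 135 CPM in extract cultures at 8 h, to 73.8 to 106 CPM in LPS cultures and to 30.7 to 44.1 CPM in control cultures. Ly6g, which defines neutrophils, was at 0 in all of these and the other 3 were detected, and their part in the differences at 8 h was not tested.

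**Figure D3:**
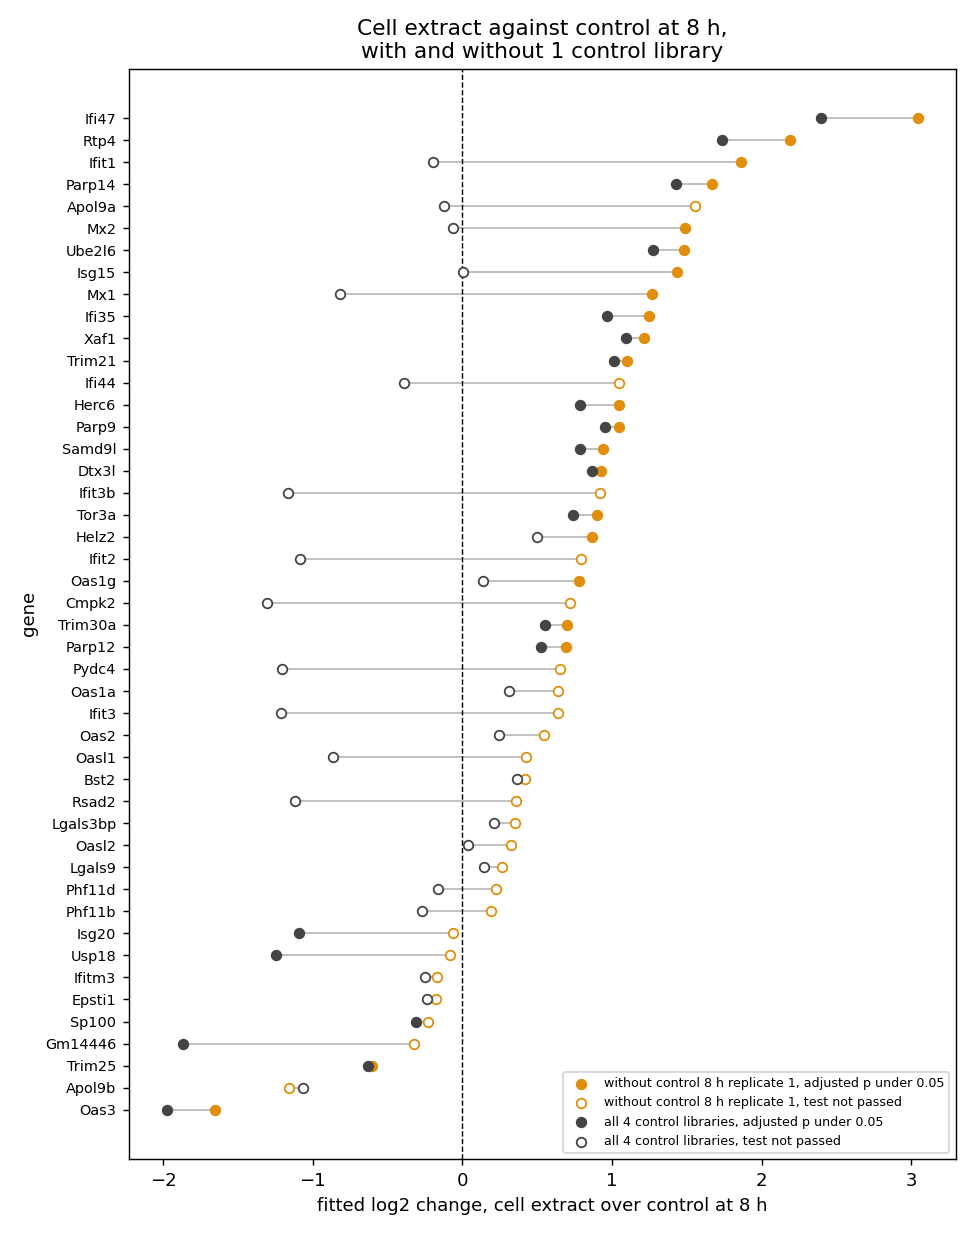
Fitted log2 change of each gene with cell extract over control at 8 h, without control 8 h replicate 1 (orange) and with all 4 control libraries (dark), joined by a line, filled where the adjusted p was under 0.05. Ifi47, Rtp4 and Parp14 lie on the right and Oas3 on the left of 0 with and without the library, while 14 genes, Ifit1, Mx1 and Mx2 among them, lie on the left of 0 with the library and on the right without it.

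By 24 h cell extract had raised 45 of the 46 genes, against 11.7% of all genes, and none was lower, against 10.4% of all genes. The median log2 change was 2.24 (2.19 with genes at 0 counts in controls at their lower bound). The 45 include all genes of each role group except Trim25, which stood at 141, 170.4 and 139.8 CPM in extract cultures and 203, 189, 157 and 154 CPM in control cultures (-0.22 ± 0.19, adjusted p = 0.483). In 45 genes every extract library lay above every control library, which held for 18.7% of all genes. The largest change with a measured control level was that of Ifit3, at 34.1, 83.3 and 48.2 CPM in extract cultures and 4.45, 2.03, 1.73 and 1.89 CPM in control cultures (4.60 ± 0.61, adjusted p = 1.07e-07). Apol9b, with 16 counts over 3 extract libraries, and Apol9a, with 13, had 0 counts in control cultures, and were at least 4.04-fold and at least 3.63-fold higher on the floor of 3 counts. Ifitm3 (0.85 ± 0.23) and Tor3a (1.03 ± 0.15), a torsin ATPase, had the smallest changes that passed.

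Ifit1 stood at 156, 373 and 206 CPM in extract cultures at 24 h, against 24.9, 8.03, 9.34 and 9.64 CPM in control cultures (4.30 ± 0.66). Rsad2 stood at 383, 1078 and 543 CPM with extract and at 102, 44.1, 47.4 and 44.2 CPM in controls (3.50 ± 0.52). Cmpk2 stood at 126, 431 and 194 CPM with extract and at 37.05, 11.4, 12.02 and 13.2 CPM in controls (3.82 ± 0.61). In all 3 genes extract 24 h replicate 3, the middle value of each list, was the highest of its group, and it took 0.805% of gene counts for the 46 genes where the other extract libraries at this time took 0.541% and 0.578%. Isg15 stood at 93.2, 219 and 157 CPM in extract cultures and 20.3, 7.92, 13.9 and 14.5 CPM in control cultures (3.49 ± 0.53). Usp18 stood at 36.4, 90.5 and 49.8 CPM in extract cultures and 8.40, 6.74, 5.97 and 4.25 CPM in control cultures (3.26 ± 0.42). Mx1, with 33.3, 94.5 and 45.97 CPM in extract cultures and 9.14, 2.89, 2.94 and 2.27 CPM in control cultures, changed by 3.93 ± 0.62. Oasl1 stood at 21.3, 52.8 and 31.5 CPM in extract cultures and 10.4, 6.53, 6.31 and 6.90 CPM in control cultures (2.27 ± 0.40). These genes, which had not passed or had been lower at 8 h with all libraries, were thus all clear of their controls.

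Other members had less of a spread among the extract cultures at 24 h. Oas3 stood at 51.98, 77.2 and 54.6 CPM with extract, against 18.03, 11.98, 10.5 and 9.83 CPM in controls (2.32 ± 0.29). Bst2 stood at 173, 206 and 229.6 CPM in extract cultures and 46.2, 35.5, 49.1 and 60.8 CPM in control cultures (2.08 ± 0.25). Parp14 stood at 324, 339 and 284 CPM in extract cultures and 73.1, 77.9, 64.3 and 63.7 CPM in control cultures (2.18 ± 0.21). In all 3 genes the extract libraries lay well clear of the controls. The neutrophil markers summed to 123 to 169.5 CPM in extract cultures at 24 h, all 4 detected, and to 18.5 to 34.1 CPM in control cultures, and their part was not tested. Lgals9 stood at 149, 168 and 149 CPM with extract and 37.3, 46.97, 40.8 and 49.1 CPM in controls (1.83 ± 0.17), and Lgals3bp at 522, 535 and 510.2 CPM and 124, 179, 143 and 148 CPM (1.81 ± 0.20).

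At 72 h of cell extract 42 of the 46 genes were higher than in control cultures, against 14.2% of all genes, and none lower, against 12.2%. The median log2 change was 1.85 (1.81 with Apol9a at its lower bound), and in 43 genes every extract library lay above every control library, against 22.5% of all genes. Apol9b, Mx2, Xaf1 and Epsti1 did not pass. Apol9b had 40 counts over 3 extract libraries and 3 counts over 3 control libraries. Mx2 stood at 3.39, 3.75 and 4.39 CPM in extract cultures and 1.06, 1.78 and 2.14 CPM in control cultures (1.33 ± 0.72), and Xaf1, a binding partner of the apoptosis inhibitor XIAP, and Epsti1 changed by 0.30 ± 0.35 and -0.14 ± 0.28. The largest changes among genes with counts in controls were those of Ifi44 (4.61 ± 0.70) and Gm14446 (3.86 ± 0.69). Apol9a had 17 counts with extract and 0 without, at least 1.60-fold higher.

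Oas3 stood at 61.3, 65.7 and 67.1 CPM in extract cultures at 72 h, against 5.09, 9.24 and 5.89 CPM in control cultures (3.28 ± 0.37, adjusted p = 8.16e-09), so the gene with the largest fall at 8 h was well above its controls at 72 h. Ifit1 stood at 138, 183 and 171 CPM with extract and 15.1, 28.8 and 26.2 CPM in controls (2.83 ± 0.71), and Isg15 at 119, 149 and 130.2 CPM and 22.3, 27.7 and 25.7 CPM (2.40 ± 0.58). Trim25 stood at 168, 147 and 169.9 CPM with extract and 86.1, 88.5 and 88.3 CPM in controls (0.89 ± 0.21), where the control level was lower than at the earlier times. Mx1 stood at 24.4, 24.4 and 31.8 CPM with extract (3.14 ± 0.82), Rsad2 at 355, 449 and 396 CPM with extract and 53.2, 92.1 and 77.6 CPM in controls (2.43 ± 0.56), and Bst2 at 188, 169 and 184 CPM and 47.9, 61.2 and 66.4 CPM (1.63 ± 0.28). Every extract library lay above every control library in these genes. Ifitm3 stood at 342, 419 and 423 CPM with extract and 253, 217 and 265 CPM in controls (0.69 ± 0.25), the smallest rise that passed. The mesothelial markers summed to 1.13 to 3.08 CPM in extract cultures at 72 h and 69.0 to 103 CPM in control cultures, and the fibroblast markers to 195 to 230.1 CPM and 485 to 1085 CPM, with every marker of both lists detected. Their part in these differences was not tested.

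**Figure D4:**
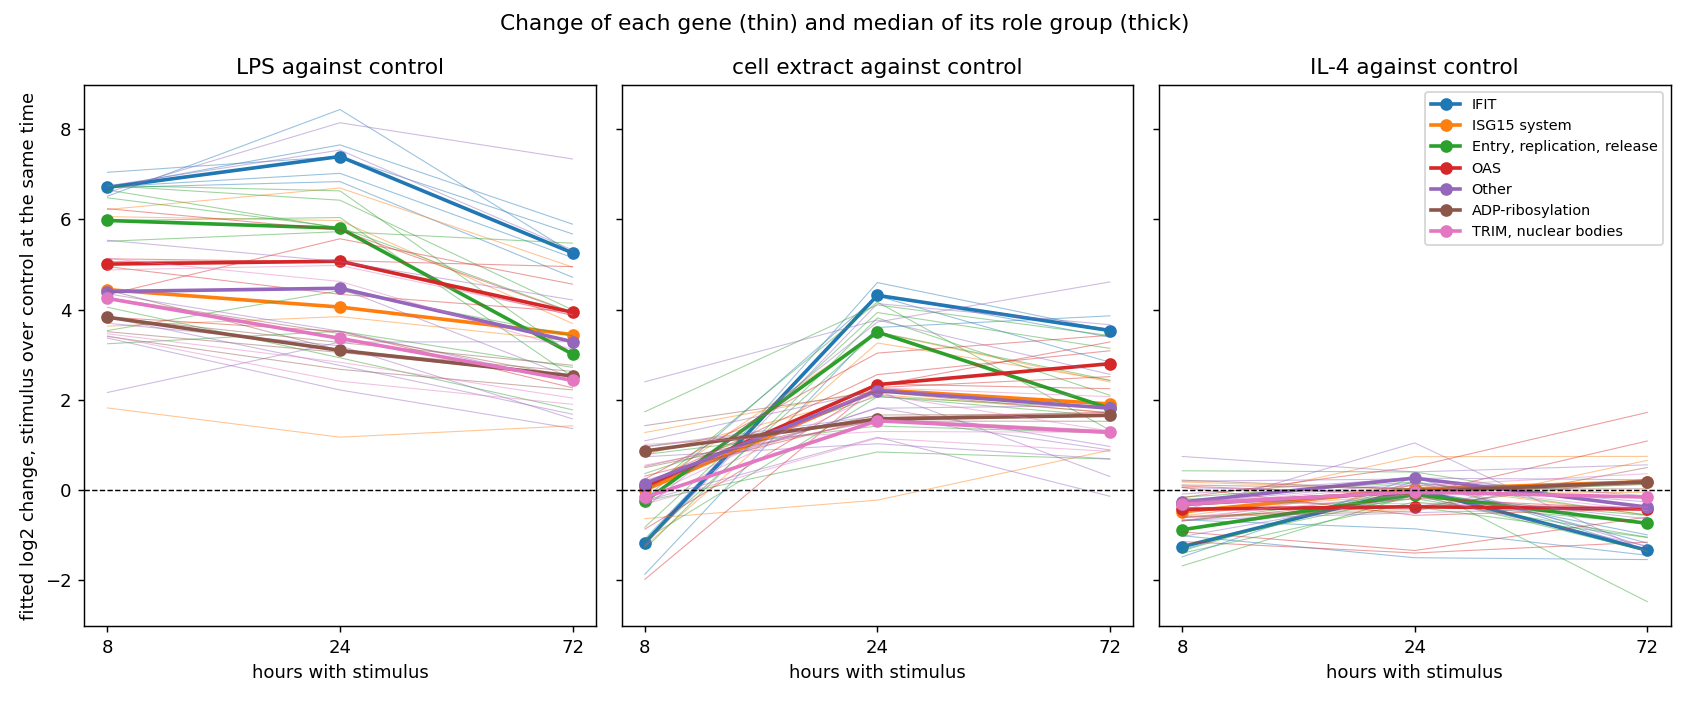
Fitted log2 change over control at 8, 24 and 72 h for LPS, cell extract and IL-4, with a thin line per gene and a thick line for the median of each role group, and no thin lines for Apol9a and Apol9b, which had groups at 0 counts. The LPS medians are highest at 8 or 24 h and lower at 72 h, the cell extract medians lie between -1.16 and 0.87 at 8 h and between 1.54 and 4.32 at 24 h, and the IL-4 medians stay at or under 0.27.

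Between 8 and 72 h many of these genes fell with LPS and rose with cell extract, though most extract means peaked at 24 h. Between 8 and 72 h of cell extract 33 of the 46 genes rose, against 17.2% of all genes, and 1 fell, against 13.4%, with a median of 1.25. In 35 genes every library at 72 h lay above every library at 8 h, against 24.1% of all genes, and in 3 every library lay below, against 20.2%. No library is shared between this comparison and that of LPS at 72 h with 8 h. 27 genes rose with extract and fell with LPS, 6 rose with extract and did not pass with LPS, 12 fell with LPS and did not pass with extract, and Tor3a was lower at 72 h in both. Means peaked at 24 h for 36 genes and at 72 h for 10 with extract, and at 8 h for none.

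Gm14446 had the largest rise over time with extract, at 0.676 ± 0.355 CPM at 8 h, 9.38 ± 6.78 CPM at 24 h and 21.7 ± 4.53 CPM at 72 h (5.06 ± 0.57 at 72 h against 8 h). Ifi44 followed the same order, with 3.05 ± 1.39, 21.5 ± 9.21 and 44.7 ± 4.79 CPM at 8, 24 and 72 h (3.91 ± 0.50). Apol9b had 40 counts at 72 h and 2 at 8 h, or 1.19 ± 0.272 CPM and 0.0502 ± 0.0618 CPM. The IFIT genes rose in 5 of 5, and none of the 5 ADP-ribosyltransferase genes passed. Oas3 rose by 3.29 ± 0.30 (adjusted p = 3.72e-11) and Usp18 by 2.51 ± 0.42. At the other end, Tor3a fell by 0.59 on the log2 scale (adjusted p = 0.00188), while Ifi47 (-0.53 ± 0.26) and Ifi35 (-0.48 ± 0.24) did not pass. Ifi47, the member with the largest early rise, averaged 199 ± 37.7 CPM at 8 h, 299.6 ± 30.2 CPM at 24 h and 137 ± 3.64 CPM at 72 h.

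The extract effect itself, 72 h minus 8 h, was larger for 32 genes (13.1% of all genes) and smaller for none (8.75% of all genes), with a median of 1.62. Gm14446 (5.73 ± 0.97), Oas3 (5.26 ± 0.47) and Ifi44 (5.0 ± 0.89) had the largest differences that passed, and all 5 IFIT genes and all 6 of the oligoadenylate synthetase family passed. The fitted difference of Apol9a, which has a control group at 0 counts, depends on the prior count and is not given. The smallest differences were those of Xaf1 (-0.79 ± 0.46), Ifi35 (-0.08 ± 0.36) and Tor3a (-0.05 ± 0.21), and none of these passed. Without control 8 h replicate 1 the count was 25, with a median of 1.16, and without all 3 libraries that stood apart it was 28. Without that 1 library 3 of the 5 IFIT genes and 5 of the 6 of the synthetase family passed. The difference of Ifit1 was then 0.97 ± 0.64, against 3.03 ± 0.90 with all libraries, and that of Isg15 0.96 ± 0.56, against 2.39 ± 0.74, and both lost their call. Ifit3b (2.47 ± 1.02), Mx1 (1.87 ± 0.71) and Cmpk2 (1.38 ± 0.58) lost theirs too, while Oas3 (4.94 ± 0.44), Gm14446 (4.18 ± 0.83) and Ifi44 (3.56 ± 0.75) were again the largest that passed. In the fit without all 3 libraries that stood apart, Mx1 and Cmpk2 kept their calls, and 3 of the 5 IFIT genes again passed.

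**Figure D5:**
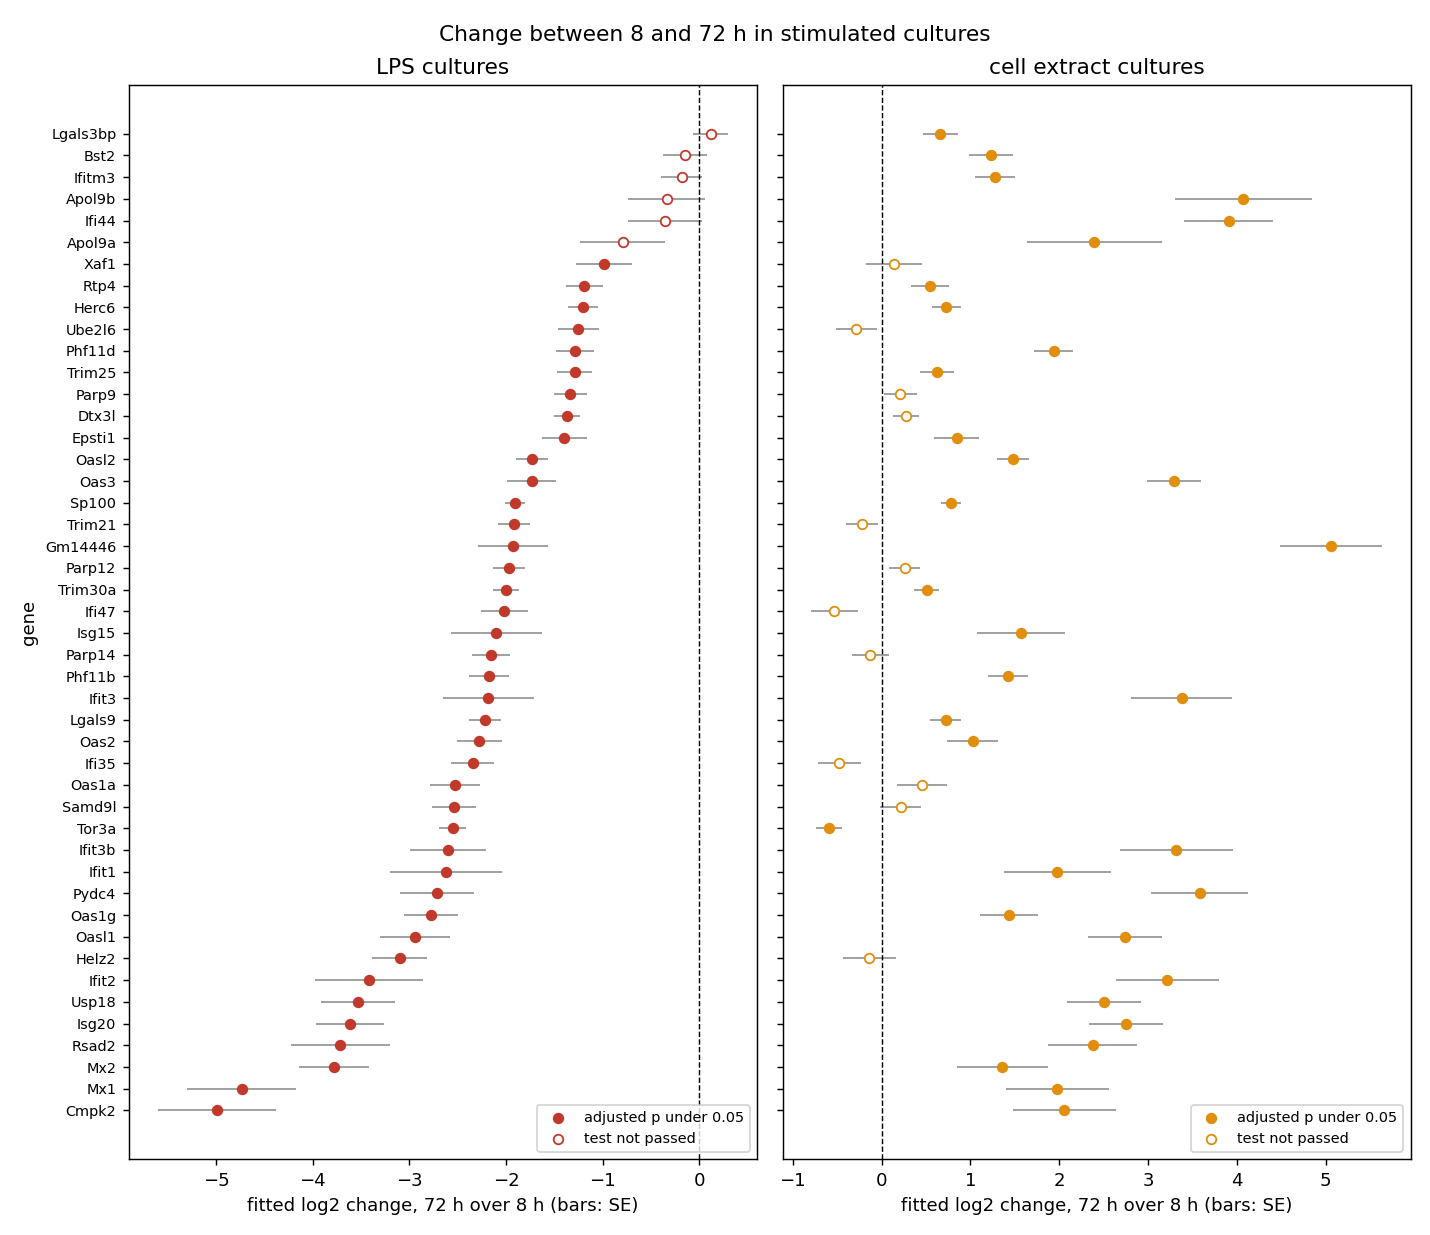
Fitted log2 change at 72 h over 8 h (bars, SE) for each gene in LPS cultures and in cell extract cultures, both in the order of the LPS change, filled where the adjusted p was under 0.05. 40 genes lie left of 0 and filled with LPS, down to -4.99 for Cmpk2, and 33 lie right of 0 and filled with cell extract, up to 5.06 for Gm14446.

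At equal times cell extract left these genes far below LPS. At 8 h all 46 were lower with extract, against 15.1% of all genes called lower and 14% called higher, with a median log2 change of -4.44. At 24 h all 46 were again lower (8.76% of all genes, with 8.06% higher), with a median of -2.16, and at 72 h 39 were lower (11.4% of all genes, with 11% higher), with a median of -1.41. In 46, 46 and 38 genes every extract library lay below every LPS library at 8, 24 and 72 h, against 16.6%, 17.8% and 15.3% of all genes. These counts include Apol9a and Apol9b, which passed the filter only through the LPS libraries. The 7 genes that did not pass at 72 h were Samd9l (-0.51 ± 0.24), Oas1a (-0.54 ± 0.28), Isg20 (-0.70 ± 0.37), Oas1g (-0.78 ± 0.31), Mx1 (-0.85 ± 0.56), Cmpk2 (-0.91 ± 0.58) and Ifit2 (-1.15 ± 0.57). A missed threshold does not show that these levels are alike.

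The widest gaps at 8 h were those of Gm14446 (-8.38 ± 0.55), Ifit3b (-8.21 ± 0.57) and Cmpk2 (-7.96 ± 0.70), and the narrowest those of Lgals3bp (-1.95 ± 0.19), Ube2l6 (-2.36 ± 0.22) and Parp9 (-2.45 ± 0.18). At 24 h Apol9b (-4.94 ± 0.53), Gm14446 (-4.83 ± 0.46) and Ifi44 (-4.41 ± 0.49) were farthest below LPS, and Parp9 (-1.10 ± 0.18), Tor3a (-1.19 ± 0.15) and Sp100 (-1.26 ± 0.12) nearest to it. Means with extract ran from 2.97% of the LPS mean at 24 h, in Apol9b, to 46.7%, in Parp9. At 72 h they ran from 14.9%, in Ifi44, to 74.4%, in Oas1a, which stood at 27.6, 37.2 and 29.2 CPM with extract and 14.5, 47.9, 52.2 and 53.8 CPM with LPS. Ifi44, Isg15 (-2.55 ± 0.54) and Apol9b (-2.36 ± 0.49) had the widest gaps at 72 h. Ifitm3 (-2.03 ± 0.24) and Bst2 (-1.79 ± 0.26), which had not passed the test over time in LPS cultures, were lower with extract at 72 h too. Trim25 was among the 3 genes nearest to LPS at 72 h and still passed (-0.54 ± 0.19).

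With the filter on low counts IL-4 moved few of these genes, and without it more were called at 8 and 72 h. At 8 h 1 gene was called higher (4.29% of all genes) and 3 lower (4.04% of all genes), at 24 h again 1 higher (4.74%) and 3 lower (4.76%), and at 72 h 4 higher (13.2%) and 6 lower (10.5%). These shares of 46 lie near those of all genes tested. Tor3a was the gene that rose at 8 h, averaging 136 ± 8.10 CPM with IL-4 and 81.3 ± 18.3 CPM in controls (0.75 ± 0.14, adjusted p = 1.73e-04), and it was higher at 72 h as well (0.56 ± 0.16). Trim25, Parp12 and Oas3 were the genes called lower at 8 h. The largest fitted changes at 8 h that did not pass were those of Cmpk2 (-1.68 ± 0.58), Ifit3 (-1.48 ± 0.67) and Mx1 (-1.39 ± 0.68), in which control 8 h replicate 1 lay far above the other controls. Bst2 (0.43 ± 0.24) did not pass either. Without that library 19 genes turned from a fitted change below 0 to one above it, none of them passing, and the median of the 46 was 0.27, against -0.53 with all libraries. Tor3a was then the 1 gene called at 8 h (0.91), and leaving out any other control library at 8 h gave 7 to 10 calls. In the fit without all 3 libraries that stood apart, 3 of the 4 calls were kept, those of Tor3a, Trim25 and Oas3.

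Oas3 was the only member called lower with IL-4 at all 3 times in the fit of all libraries. Its call at 8 h was lost without control 8 h replicate 1 alone (-0.82, adjusted p = 0.0878). Oas3 kept the call at 8 h without all 3 libraries that stood apart (-0.83). It stood at 12.7, 17.2, 11.8 and 6.33 CPM in IL-4 cultures and 41.6, 27.7, 14.9 and 18.97 CPM in control cultures at 8 h (-1.14 ± 0.30, adjusted p = 0.00947). At 24 h it stood at 13.1, 3.47, 4.90 and 4.15 CPM with IL-4 and 18.03, 11.98, 10.5 and 9.83 CPM in controls (-1.39 ± 0.32, adjusted p = 0.00249), and at 72 h at 1.90, 4.68 and 2.61 CPM with IL-4 and 5.09, 9.24 and 5.89 CPM in controls (-1.15 ± 0.41, adjusted p = 0.0368). The groups overlapped at 8 and 24 h, and at 72 h all 3 IL-4 libraries lay below all 3 control libraries. Oas2 (-1.34 ± 0.42) and Oasl2 (-0.56 ± 0.18) were lower at 24 h as well, and Gm14446 (-1.50 ± 0.96) did not pass. At 24 h the 1 gene called higher was Xaf1 (1.05 ± 0.33), and its call was lost without the libraries that stood apart. There 0 genes were higher and 3 lower, but only 2 of the 4 calls of the full fit were kept. The 3 lower genes were thus not all the same as before.

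At 72 h with IL-4, in the fit of all libraries, 2 of the 6 genes of the synthetase family were called higher and 1 lower, and 3 did not pass. Oas1a stood at 16.8, 24.4 and 18.4 CPM in IL-4 cultures and 6.57, 11.7 and 10.7 CPM in control cultures (1.09 ± 0.35), and its near copy Oas1g rose by 1.72 ± 0.56, while Oas3 fell. Trim25 stood at 139.7, 131 and 145 CPM with IL-4 and 86.1, 88.5 and 88.3 CPM in controls (0.66 ± 0.21). Ifitm3 stood at 139.9, 74.9 and 140.0 CPM with IL-4 and 253, 217 and 265 CPM in controls (-1.05 ± 0.25), and Lgals9 at 23.1, 44.3 and 21.4 CPM and 42.2, 45.9 and 50.3 CPM (-0.64 ± 0.20). Sp100, Epsti1 and Xaf1 were the other genes called lower. Usp18 (0.75 ± 0.51), the third largest fitted change, and the falls of Mx2 (-2.47 ± 0.99) and Gm14446 (-1.54 ± 1.02) did not pass. Apol9b had 4 counts over the IL-4 libraries and 3 over the control libraries at 72 h. The mesothelial markers summed to 4.33 to 17.5 CPM with IL-4 at 72 h and 69.0 to 103 CPM in controls, and the fibroblast markers to 89.8 to 202 CPM and 485 to 1085 CPM, with all detected. Their part in these differences was not tested. Leaving out control 72 h replicate 1 reduced the calls at 72 h to 5, all of them lower, so that all 4 higher calls, Oas1a, Oas1g and Trim25 among them, were lost. Without IL-4 72 h replicate 3, 1 gene was called higher and 6 lower, and leaving out control 72 h replicate 3 or IL-4 72 h replicate 4 reduced them to 6.

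Without a stimulus 1 gene rose between 8 and 72 h (6.38% of all genes) and 11 fell (7.16% of all genes), with a median log2 change of -0.71. Epsti1 was the gene that rose (0.75 ± 0.26). Oas2 (-2.16 ± 0.57), Oas3 (-1.97 ± 0.36) and Helz2 (-1.30 ± 0.37), a helicase and nuclear receptor coactivator, had the largest falls that passed. Mx1 (-1.98 ± 0.81) and Xaf1 (0.93 ± 0.33) did not pass, and Apol9a had 0 counts at 72 h and 5 at 8 h. Lgals3bp averaged 213 ± 49.9 CPM at 8 h, 148 ± 22.6 CPM at 24 h and 106 ± 14.9 CPM at 72 h (-1.01 ± 0.21). Trim25 averaged 163 ± 17.97, 175 ± 23.99 and 87.6 ± 1.35 CPM at these times (-0.89 ± 0.20). The fitted change of 19 genes turned above 0 without control 8 h replicate 1, and the median was 0.00. The count of calls was 5 without control 8 h replicate 1 or without control 72 h replicate 1, and 20 without control 8 h replicate 3. Ifit1, with -1.05 ± 0.66 in the fit of all libraries, was at 1.00 without the 3 libraries that stood apart (adjusted p = 0.0480) and at 1.01 without control 8 h replicate 1 alone (adjusted p = 0.202). The mesothelial markers summed to 69.0 to 103 CPM at 72 h and 11.6 to 18.5 CPM at 8 h, and the fibroblast markers to 485 to 1085 CPM and 139 to 159 CPM, and their part was not tested.

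Of 40 other genes of the interferon pathway listed, 39 had a row and 22 were tested, and Irf8 was not analysed here. With LPS 17 of the 22 were higher and 1 lower at 8 h (21.3% and 24.1% of all genes), 16 and 2 at 24 h (18.6% and 19.3%), and 15 and 4 at 72 h (16.1% and 15.4%). With cell extract 13 were higher and 1 lower at 8 h (13% and 17.2% of all genes), 13 and 2 at 24 h (11.7% and 10.4%), and 12 and 4 at 72 h (14.2% and 12.2%). With IL-4 4 were higher and 0 lower at 8 h (4.29% and 4.04% of all genes) and at 24 h (4.74% and 4.76%), and 3 and 3 at 72 h (13.2% and 10.5%). Among ligands, Ifnb1, interferon beta, was below the filter, averaging 1.38 ± 0.275 CPM in LPS cultures at 8 h from 31 counts, and had 0 to 4 counts in each of the other groups. Ifng, interferon gamma, averaged 43 ± 11.98 CPM with LPS, 6.03 ± 2.57 CPM with extract and 0.863 ± 0.777 CPM in controls at 8 h (5.77 ± 0.43 for LPS and 2.95 ± 0.44 for extract, each against control). These changes were 6.70 ± 0.47 and 3.87 ± 0.47 without control 8 h replicate 1. Ifng was the 1 ligand tested of the 17 listed, and it counts among the genes higher with LPS and with extract. It was low in controls and passed the filter through the LPS and extract libraries, so its rise is no independent result.

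The factors Irf7 and Irf1 were called at different times with cell extract. Irf7, which amplifies type I interferon, changed by -0.61 ± 0.36 at 8 h (adjusted p = 0.228), 3.07 ± 0.40 at 24 h and 3.45 ± 0.48 at 72 h with extract, and by 5.60 ± 0.42, 6.86 ± 0.45 and 5.73 ± 0.51 with LPS. Without control 8 h replicate 1 the change of Irf7 at 8 h was 0.18 ± 0.32 with extract (adjusted p = 0.772), so its direction turned and it again did not pass, and 6.39 ± 0.41 with LPS. Irf1, which responds to interferon gamma and to NF-kB, changed by 3.04 ± 0.22, 2.68 ± 0.23 and 2.63 ± 0.26 with extract at 8, 24 and 72 h. Stat2, a partner of Irf9, rose with extract by 0.84 ± 0.13, 2.05 ± 0.14 and 1.83 ± 0.17 at these times. The brake Socs1 rose with extract by 3.31 ± 0.35 at 8 h and with IL-4 by 3.76 ± 0.36. Irf7 was thus called higher with extract at 24 and 72 h and not at 8 h, while Irf1, Stat2 and Socs1 were called higher at 8 h already.

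Levels can be set against each other per length of the exons. Isg15 was highest in LPS cultures at 8 h, at 4371 ± 1117 CPM per kb, then Rsad2 at 3436 ± 338, Ifitm3 at 2700.5 ± 402 and Ifit1 at 1888 ± 257 CPM per kb. The order of Isg15 and Rsad2 is within their spread. Apol9a was lowest, at 0.791 ± 0.148 CPM per kb. In LPS cultures at 72 h Ifitm3 led with 2380.3 ± 514 CPM per kb, followed by Isg15 at 1025 ± 462 and Bst2 at 689 ± 107 CPM per kb. Ifitm3 was also highest in extract cultures, at 240.4 ± 7.72 CPM per kb at 8 h and 488 ± 30.7 CPM per kb at 24 h, and in control cultures at 8 h, at 285 ± 32.5 CPM per kb.

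Some of these genes share sequence or exons with others, and their split is uncertain to that extent. Besides Ifit3 and Oas1a, 52.3% of the 50-base words of Apol9b occur in Apol9a and 47.0% of those of Phf11b in Phf11a. Exons of Ifi35 overlap a predicted gene over 16.8% of their length, those of Rtp4 over 13.9% and those of Herc6 over 13.7%. The strand setting of the authors' counting is not given in the sources used here.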

How the data were processed

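The authors deposited whole-number counts of reads per gene, unnormalized, from polyadenylated RNA (Diagenode CATS mRNA-seq kit, single-end 50-base reads, per the labels' protocols). Cutadapt, Bowtie2, TopHat2 2.1.1 and HTSeq and the mm10 build are named in the submitters' processing notes. Neither names an annotation release or strand setting, which are not given in the sources. The table's 5 summary entries were left out, and reads HTSeq called ambiguous came to 5.39% of gene plus ambiguous counts. Gene counts per library ran from 908458 to 26616968, no 2 libraries were identical, and precision for low genes is limited by this depth.

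Samples were grouped by their labels into 12 groups. edgeR 4.0.16 (R 4.3.3) was run on all 44 libraries: filterByExpr with a minimum count of 10, TMM scaling and the quasi-likelihood F test on 1 coefficient per group, with 32 residual degrees of freedom and a common biological coefficient of variation of 0.219. 17 comparisons were each adjusted by Benjamini-Hochberg over 14537 genes. Fitted log2 changes carry a prior count of 0.125. Against a group at 0 counts, a fold was bounded with 3 counts over that group. The procedure was tested on simulated data. Alternatives were DESeq2 1.42.0, RLE size factors, no filter on low counts, the compared groups alone, a replicate block and leaving out libraries.

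The members and gene lists were chosen with earlier results of these data known. Values in every library are given for 19 genes set by role, and beside them the 3 largest and 3 smallest changes of each comparison are named, with other members by count and range. Promoter windows are RefSeq's (GRCm38.p6), gene positions GENCODE M21's (GRCm38), and the share of 50-base words that genes have in common was counted in GENCODE transcripts.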

Additional observations from a re-analysis of the deposited data

Results flagged for a closer look

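A library was picked out where, in a group of 4, its gap to the nearest other library, as a share of the group's range, was over Dixon's 95% critical value. This was so in 36 of 160 tests of the 19 genes and of their summed share. Chance gives about 1 in 20 for a single test. The same library can be picked out in many genes at once, so that rate is no yardstick for this count. Most of the 36 fell on replicate 1 of control 8 h, control 24 h or IL-4 24 h.

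In control 8 h replicate 1 the summed share of the 46 genes was 0.367% of gene counts. In the same library Ifit1 stood at 156 CPM, Ifit3 at 32.2, Ifit3b at 6.40, Isg15 at 128, Usp18 at 46.5 and Oasl1 at 27.5 CPM. Rsad2 stood at 489, Cmpk2 at 189, Mx1 at 39.8 and Mx2 at 5.06 CPM there. Each of these was the highest of its group. In control 24 h replicate 1 Ifit1 stood at 24.9, Ifit3 at 4.45, Ifit3b at 1.73, Oasl1 at 10.4, Rsad2 at 102, Cmpk2 at 37.0 and Mx1 at 9.14 CPM, again the highest of each group.

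In IL-4 24 h replicate 1, the shallowest library, Ifit1 stood at 55.6, Ifit3 at 17.4, Isg15 at 52.3, Usp18 at 19.6, Oasl1 at 18.5 and Oas3 at 13.1 CPM. Rsad2 stood at 122, Cmpk2 at 51.2, Mx1 at 18.5, Mx2 at 3.27, Bst2 at 109 and Ifitm3 at 260.4 CPM there. Elsewhere Trim25 was low in LPS 8 h replicate 4 at 534 CPM, Oas1a low in LPS 72 h replicate 1 at 14.5 CPM and Rsad2 high in that library at 1562 CPM. Parp14 was low in cell extract 8 h replicate 2 at 146 CPM, Oasl1 high in IL-4 8 h replicate 4 at 8.86 CPM and Bst2 low in control 8 h replicate 2 at 43.5 CPM.

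The stimulus effect differed between 72 and 8 h, by the test of the difference itself, for 28 of the 46 genes with LPS and for 32 with cell extract.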

How the results depend on the processing

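The counts of members called with LPS against control (46 at each time), with extract against control, with extract against LPS, in LPS and extract cultures over time and for the differences between effects stayed within 1.5 times under every other setting planned. The counts with IL-4 and in unstimulated cultures did not. Without a filter on low counts 16 members were called with IL-4 at 8 h, 16 with IL-4 at 72 h and 22 in unstimulated cultures. With the compared groups alone in the fit the counts were 1 for IL-4 at 8 h, 1 for IL-4 at 24 h and 5 for unstimulated cultures. Without the libraries rich in ambiguous reads, chosen after seeing the data, 6 were called with IL-4 at 72 h. The share of all genes called under these settings is not given here, and the cause of each shift was not tested.

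With the replicate number as a block, 7 members were called with IL-4 at 8 h, and no other count moved by over 1.5 times. Of 223 pairs of same-numbered libraries, 128 had deviations correlated over 0.1 (median r 0.13, lowest -0.27), and 31 of 44 libraries correlated best with their own number. Libraries of different numbers had a median r of -0.04, so same-numbered libraries shared part of their deviations. Of the 8 libraries with over 10 ambiguous reads per 100 gene counts, all but LPS 72 h replicate 1 were replicate 3. What the numbers stand for is not given in the labels, and the main fit has no term for them.

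Leaving out each library in turn gave 46 to 46 calls for LPS against control at each time, 17 to 26, 45 to 45 and 38 to 42 for extract against control at 8, 24 and 72 h, and 1 to 10, 1 to 4 and 5 to 8 for IL-4. Within these, extract at 8 h gave 14 to 20 genes higher and 2 to 12 lower (13 lower without a filter on low counts), and IL-4 at 72 h gave 0 to 4 higher and 3 to 6 lower. Extract against LPS gave 46 to 46, 45 to 46 and 32 to 37. Times compared gave 40 to 40 for LPS, 29 to 33 for extract and 5 to 20 for unstimulated cultures, and the differences between effects 27 to 36 for LPS and 25 to 33 for extract. IL-4 at 24 h gave 1 call without control 24 h replicate 1 and 2 without replicate 2 or 4 of that group, and IL-4 at 8 h gave 2 and 1 without its own replicates 3 and 4. Where an arm was left with 2 libraries, the spread is pooled over all groups.

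Over all 46 genes, without control 8 h replicate 1 the direction at 8 h turned in 14 genes with extract and 19 with IL-4. Among the genes with values in every library, the direction turned and the new one passed for 4 with extract at 8 h, without the 3 libraries that stood apart (Ifit1 1.86, Cmpk2 0.72, Mx1 1.27, Mx2 1.48) and without control 8 h replicate 1 alone (Ifit1 1.86, Mx1 1.26, Mx2 1.49, lowest with any 1 library left out -0.55, -1.20 and -0.54), and for Ifit1 in unstimulated cultures (1.00 without the 3 libraries). Over all settings, the values of named genes kept direction and call in 4507 cases, lost the call in 149 and gained it in 79. DESeq2 gave no adjusted p for Mx1, and with the compared groups alone Ifit3b or Mx2 was below the filter in 5 comparisons without LPS and had no value. Depth limits Apol9a, Apol9b and Ifit3b outside LPS cultures.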
